A study of Mus musculus with 8 samples.

Results

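Suprabasal keratins and secreted differentiation proteins of the epidermis were examined in dorsal skin of mice given butyrate or plain water, before and after exposure to house dust mite (HDM) allergen. The 10 genes were chosen by name from the 22740 protein-coding genes of the count table: the type II keratins Krt1, Krt2, Krt77, Krt78 and Krt80, the type I keratin Krt10, the secreted proteins Krtdap, Sbsn and Dmkn, and the calcium-binding protein Calm4. The 10 genes were all listed, and all were among the 15163 genes that passed the filter on low counts. Krt2 passed only through its 13 to 20 counts in baseline skin and had 6 to 8 counts in lesional skin.

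RNA was sequenced from whole skin of 8 BALB/c mice that lived on a low-fibre diet, as 1 library a mouse, with 2 mice a group. Their age is given as 6 to 8 weeks, which the study states for mice entering the allergen model. The age of each group at sampling is not stated there. Butyrate-treated mice (labelled SCFA) drank 400 mM sodium butyrate from 2 weeks before the first allergen patch until the end, and CTL mice (labelled Vehicle) drank water alone. Lesional skin (labelled Atopic dermatitis) had received 4 epicutaneous exposures of 15 µg HDM within 2 weeks on shaved back skin under an occlusive patch, and baseline skin had received no allergen and was taken when the butyrate course ended. The 4 groups were baseline CTL (replicates 1 and 2), baseline butyrate (replicates 1 and 3), lesional CTL (replicates 4 and 5) and lesional butyrate (replicates 3 and 4). The sample names begin with another number in baseline than in lesional mice, so an effect of allergen and one of these separate sets cannot be told apart. None of the 4 groups is described as having had the patch without allergen, so an effect of the patch cannot be told apart from that of allergen either. The comparisons address whether keratinocyte differentiation differs between lesional and baseline skin, and whether butyrate shifts it.

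Keratinocytes divide in the basal layer, where they make the keratin pair Krt5 and Krt14, and switch to Krt1 and Krt10 as they move up into the suprabasal layers. Keratins are filament proteins that assemble as pairs of a type II and a type I chain, so Krt1 is the usual partner of Krt10. Cells higher up add other type II keratins, secrete small proteins such as suprabasin, dermokine and Krtdap into the spaces between cells, and end as the cornified envelopes of the skin barrier. Reduced levels of Krt1 and Krt10 have been described in atopic dermatitis.

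The 3 secreted proteins are encoded side by side. Sbsn (ENSMUSG00000046056) lies at chr7:30751471-30756134 of GRCm38, Dmkn (ENSMUSG00000060962) at chr7:30763756-30781063 and Krtdap (ENSMUSG00000074199) at chr7:30787896-30791097, all on the plus strand in the GENCODE vM21 annotation, with 7621 and 6832 bases between neighbours. The 5 type II keratins lie on the minus strand of chromosome 15, from Krt80 (ENSMUSG00000037185, chr15:101347444-101370162) over Krt2 (ENSMUSG00000064201, chr15:101810689-101818169), Krt1 (ENSMUSG00000046834, chr15:101845426-101850794) and Krt77 (ENSMUSG00000067594, chr15:101858731-101869705) to Krt78 (ENSMUSG00000050463, chr15:101946001-101954287). Only 7936 bases separate Krt1 from Krt77. Krt10 (ENSMUSG00000019761) lies at chr11:99385254-99389364 on the minus strand and Calm4 (ENSMUSG00000033765) at chr13:3837757-3838673 on the plus strand.

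Promoters of RefSeq on GRCm38.p6, from 250 bases before a start site to 50 after it, were at hand for 8 of the 10 genes (10 promoters, with 3 for Dmkn); Krt1 and Krt80 had no entry. The AP-1 motif TGANTCA, read on both strands, was in the promoters of 3 genes, which were the 3 neighbours on chromosome 7, and in 7.81% of all 32851 promoters of the same length. It began 119 and 6 bases before the start of Sbsn, 89 bases before that of Dmkn and 81 bases before that of Krtdap, and the downstream promoter of Dmkn also held it, 82 bases before its start. TATAAA was in the promoters of Krt10 and Krtdap and in 13.6% of all promoters. CACCC, the core of KLF sites, was in those of 6 genes and in 57.5% of all, and AACNNGTT, a GRHL motif, was in none of the 8 and in 4.20% of all. These are matches of letters, not measured binding. The promoters of the 3 neighbours are shown because they share the AP-1 letters, and that of Krt10, the most abundant of the 10 genes in baseline CTL skin, is shown for contrast. Each runs 5′ to 3′ from 250 bases before the start to the first transcribed base, with AP-1 and TATA matches in capitals. The windows are chr7:30751221-30751471 for Sbsn, chr7:30763506-30763756 for Dmkn, chr7:30787655-30787905 for Krtdap (plus strand) and chr11:99389364-99389614 for Krt10 (minus strand).
Sbsn: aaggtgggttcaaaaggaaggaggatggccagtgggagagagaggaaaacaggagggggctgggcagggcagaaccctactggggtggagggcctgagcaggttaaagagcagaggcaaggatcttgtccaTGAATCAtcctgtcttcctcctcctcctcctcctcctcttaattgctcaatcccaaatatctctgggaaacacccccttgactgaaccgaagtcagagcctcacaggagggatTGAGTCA
Dmkn: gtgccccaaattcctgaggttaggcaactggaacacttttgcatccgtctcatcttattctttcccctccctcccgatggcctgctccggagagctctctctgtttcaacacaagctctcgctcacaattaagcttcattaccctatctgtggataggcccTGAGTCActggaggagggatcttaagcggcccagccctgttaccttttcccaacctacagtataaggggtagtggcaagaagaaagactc
Krtdap: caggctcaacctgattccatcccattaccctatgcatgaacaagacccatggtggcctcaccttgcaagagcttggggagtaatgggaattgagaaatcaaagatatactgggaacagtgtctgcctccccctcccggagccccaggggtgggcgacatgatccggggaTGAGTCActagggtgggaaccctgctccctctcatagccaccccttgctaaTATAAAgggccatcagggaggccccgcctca
Krt10: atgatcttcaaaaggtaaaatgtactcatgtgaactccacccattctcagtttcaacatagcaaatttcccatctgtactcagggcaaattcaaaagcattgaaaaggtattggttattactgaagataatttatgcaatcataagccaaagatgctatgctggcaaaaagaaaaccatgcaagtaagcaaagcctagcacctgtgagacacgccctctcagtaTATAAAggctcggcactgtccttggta

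Libraries held 18004136 to 21085544 counts, and levels are given as CPM (each count as a share of the library total, scaled to a fixed common library size) after TMM scaling, so that 3 counts, taken as the floor, corresponded to 0.138 to 0.169 CPM. Basal keratinocyte keratins were abundant in every mouse, with Krt5 at 3797 to 5945 CPM and Krt14 at 2420 to 5919 CPM, as skin should have. Baseline butyrate replicate 3 stood apart from the other 7 mice. It differed more than 2-fold from its group mate in 3757 of 14198 genes (26.5%), against 203 to 683 genes within the other groups. Its 19 hair shaft and root sheath genes summed to 23782 CPM, against 67.2 to 149 CPM in the others, led by Tchh (6309 CPM against 5.07 to 11.1) and Krt71 (3882 CPM against 0.140 to 1.61). Melanocyte markers summed to 723 CPM in it and to 24.7 to 44.1 CPM elsewhere, and its cell cycle genes summed to 878 CPM against 339 to 625. For this reason each comparison below is given with and without this mouse. In whole skin, fewer cells of a type and less RNA per cell cannot be told apart.

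Per kilobase of annotated exon, which allows genes to be compared, Krt10 was the highest of the 10 genes in baseline CTL skin, at 3220 ± 94.9 CPM per kb (SD, n = 2). It was followed by Krtdap, Krt77, Dmkn, Calm4, Krt1 and Sbsn, which lay between 2120 CPM per kb for Krtdap and 528 CPM per kb for Sbsn. Krt78 and Krt80 were an order of magnitude lower, at 51.6 and 45.0 CPM per kb, and Krt2 was nearly absent at 0.393 CPM per kb. Krt2, a keratin of the uppermost living layers, is in the mouse mainly a keratin of ear, sole and tail skin. Between neighbours in this order the values of the mice did not overlap. The order rests on the union of all annotated exons, which at 4415 bases is long for Krt1.
In lesional CTL skin Krtdap was highest, at 2030 ± 92.3 CPM per kb (SD, n = 2), followed by Calm4 at 973 CPM per kb. Krt10 had dropped to the place after Dmkn at 599 CPM per kb, with overlapping values, and Krt77 had moved from the third to the seventh place at 163 CPM per kb, overlapping Sbsn. In lesional butyrate skin Krtdap (2796 CPM per kb) still led, and Krt10, Calm4, Dmkn, Krt77 and Krt1 followed, each overlapping its neighbour. In baseline butyrate skin the order of the first 7 genes was that of baseline CTL skin, but the spread between its mice covered nearly all of it.

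**Figure D1:**
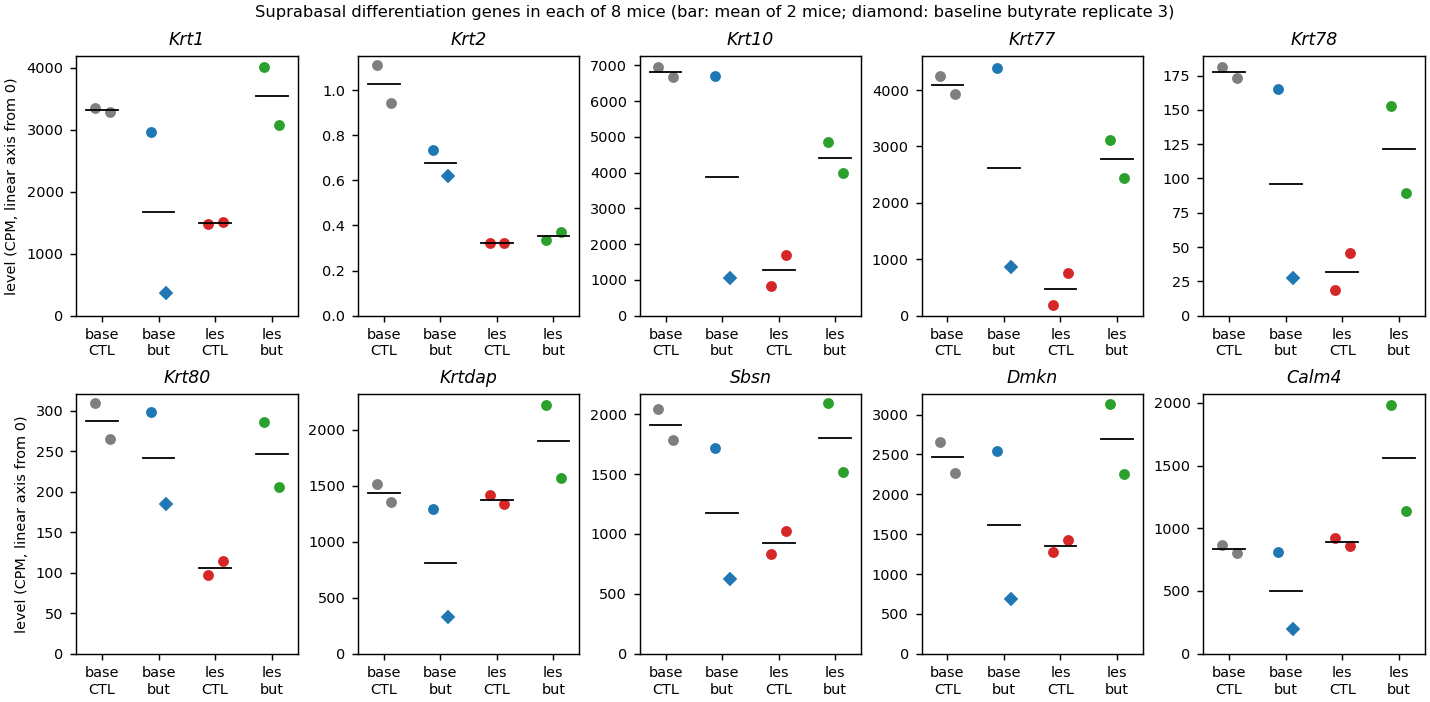
Level of each of the 10 genes in each mouse, in CPM on a linear axis that starts at 0, with a bar at the mean of the 2 mice of a group (base, baseline; les, lesional; but, butyrate). The lesional CTL mice lie below both lesional butyrate mice for all 10 genes, though for Krt2 at only 6 to 8 counts. The diamond, baseline butyrate replicate 3, lies far below its group mate for 8 of the 10 genes.

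Between baseline and lesional skin of CTL mice the keratins were lower and the secreted proteins were divided. Lesional CTL skin held 11.7% of the baseline CTL level of Krt77, 18.1% of that of Krt78 and 18.6% of that of Krt10, but 95.8% of that of Krtdap and 107% of that of Calm4. When edgeR's quasi-likelihood model was fitted over 8 mice, Krt80 fell and 8 other genes did not pass. Krt2 is described by its values only, since it entered the test through the baseline skin in which it was higher.
Krt10 was at 6950 and 6666 CPM in the baseline CTL mice and at 835 and 1697 CPM in the lesional CTL mice. The difference was -2.43 on the log2 scale (SE 0.84, FDR 0.200), and the values given in brackets after levels are log2 differences on the same scale. Krt77, a type II keratin close to Krt1 in the genome, was at 4244 and 3926 CPM at baseline and at 194 and 764 CPM in lesional CTL skin, a difference of -3.09 (SE 0.94, FDR 0.160). Both lesional mice were far below both baseline mice for these genes, yet they also differed from each other, 2.03-fold for Krt10 and 3.93-fold for Krt77, with replicate 4 the lower mouse.
Krt78, a suprabasal type II keratin, showed the same order at a lower level, with 181 and 174 CPM at baseline and 18.8 and 45.3 CPM in lesional CTL skin (-2.47, SE 0.86). Krt1 was at 3356 and 3292 CPM at baseline and at 1478 and 1507 CPM in lesional CTL skin (-1.16, SE 0.83, FDR 0.457). Its lesional mice were within 1.02-fold of each other, and without baseline butyrate replicate 3 its standard error was 0.20.
Krt80, a keratin of differentiated cells found near desmosomes, fell from 310.1 and 265 CPM to 97.7 and 115 CPM (-1.44, SE 0.28, FDR 0.0706). Krt2 was at 1.11 and 0.944 CPM at baseline and at 0.320 and 0.323 CPM in lesional CTL skin, which are 20 and 17 counts against 6 and 7. For Krt1, Krt10, Krt77, Krt78 and Krt80 both lesional CTL mice were below both baseline CTL mice, as they were for 38.5% of all genes tested. The call of Krt80 was lost when any CTL mouse or either lesional butyrate mouse was left out, with its FDR between 0.138 and 0.536.

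Among the secreted proteins, suprabasin (Sbsn) and dermokine (Dmkn) were lower in lesional CTL skin and Krtdap was not. Sbsn was at 2045 and 1782 CPM at baseline and at 835 and 1022 CPM in lesional CTL skin (-1.04, SE 0.48, FDR 0.289). Dmkn was at 2657 and 2273 CPM at baseline and at 1278 and 1424 CPM in lesional skin (-0.87, SE 0.58, FDR 0.431). Their levels did not overlap between the groups.
Krtdap, which lies next to Dmkn, was at 1521 and 1358 CPM at baseline and at 1423 and 1334 CPM in lesional CTL skin, and the groups overlapped (-0.06, SE 0.59). Calm4, a calmodulin-like protein of differentiating keratinocytes, was at 867 and 804 CPM at baseline and at 924 and 860 CPM in lesional skin and overlapped as well (0.09, SE 0.62). The direction of Krtdap turned under scaling by library totals (0.07), which moved the median of all genes from -0.02 to 0.11.
Leaving Krt2 aside, 1 of 9 genes was called, where 3.58% of all genes tested were called in either direction. No overlap with the lower level in lesional skin was seen for 7 of these 9 genes and for 38.5% of all genes. The median log2 difference of the 9 genes was -1.16, against -0.02 over all genes. Without baseline butyrate replicate 3 the differences stayed the same and their errors shrank, and 6 of the 9 genes were called lower (Krt1, Krt10, Krt77, Krt78, Krt80 and Sbsn), where 12.5% of all genes were called in either direction. There Krt10 had an FDR of 0.00780, Krt80 of 0.00574 and Krt77 of 0.0190, and Dmkn (FDR 0.0324) missed only the 2-fold limit. DESeq2 over all 8 mice called 4 of the 9 (Krt10, Krt77, Krt78 and Krt80), against 7.21% of all genes, and limma-voom called Krt80, against 3.81% of all genes.

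In lesional skin all 10 genes were at higher levels in both butyrate-treated mice than in either CTL mouse, and none passed the test over all 8 mice. The levels were 5.79 times those of CTL mice for Krt77, 3.78 times for Krt78, 3.49 times for Krt10, 2.37 times for Krt1, 2.32 times for Krt80 and 1.10 times for Krt2. Among the secreted proteins they were 1.99 times for Dmkn, 1.94 times for Sbsn and 1.38 times for Krtdap, and for Calm4 1.75 times. This comparison and the preceding one share the lesional CTL mice, so their values are not independent.
Krt77 was at 3106 and 2445 CPM in lesional butyrate skin (replicates 3 and 4), a log2 difference of 2.53 from lesional CTL skin (SE 0.91, FDR 0.951). Krt10 was at 4849 and 3984 CPM (1.80, SE 0.83). Krt1 was at 4007 and 3072 CPM (1.25, SE 0.83).
The lower of the butyrate-treated mice was above the higher CTL mouse by a wide margin for these 3 keratins. Without lesional CTL replicate 5 the difference for Krt77 was 3.84 and without replicate 4 it was 1.86, and for Krt10 these values were 2.41 and 1.38. Krt78 was at 153 and 89.6 CPM (1.92, SE 0.84), and Krt80 was at 286 and 207 CPM (1.21, SE 0.28, unadjusted p = 0.00465, FDR 0.737 by edgeR).
Krt80 had the smallest error of the 5 more abundant keratins, and Krt2, at 0.334 and 0.372 CPM (7 and 8 counts), was not distinguishable from the 6 and 7 counts of the CTL mice at this depth.
Dmkn was at 3134 and 2254 CPM (1.00, SE 0.58) and Sbsn at 2094 and 1514 CPM (0.96, SE 0.48). Krtdap was at 2225 and 1571 CPM (0.46, SE 0.59). Calm4 was at 1979 and 1138 CPM (0.81, SE 0.63).
Replicate 3 was the higher of the 2 butyrate-treated mice for all of these except Krt2. The difference for Calm4 was 0.35 without lesional butyrate replicate 3 and 1.15 without replicate 4, and that for Krtdap was 0.19 and 0.69.

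By edgeR over all 8 mice 0 of the 10 genes were called in this comparison, as were 0% of all genes tested, and 2 of the 10 (Krt77 and Krt80) had an unadjusted p under 0.05. limma-voom called 0 (0.0066% of all genes) and DESeq2 called Krt80 (FDR 0.0269), against 0.818% of all genes. Leaving Krt2 aside, no overlap with the higher level in butyrate-treated mice was seen for 9 of 9 genes and for 22.4% of all genes tested. Krt2 did not overlap either, but its counts were 6 and 7 in CTL and 7 and 8 in butyrate-treated mice. The median log2 difference of the 9 genes without Krt2 was 1.21, against -0.01 over all genes. The count of calls depended on the baseline butyrate mice, whose levels are not part of this comparison but which share its estimate of the spread and its filter on low counts. Without baseline butyrate replicate 3, edgeR called 3 of the 10 genes higher, Krt1 (FDR 0.0702), Krt10 (0.0986) and Krt80 (0.0684), where 1.22% of all genes were called, and without baseline butyrate replicate 1 it called the same 3, again against 1.22%. With only the 4 lesional mice in the fit it called 0, against 0.168% of all genes, and the FDR of the 9 genes tested lay between 0.151 for Krt80 and 0.504 for Krtdap.
Set against baseline CTL skin, lesional butyrate skin held 64.9% of the Krt10 level, 67.9% of Krt77, 68.4% of Krt78 and 85.7% of Krt80, but 106% of Krt1, 94.3% of Sbsn, 109% of Dmkn, 132% of Krtdap and 186% of Calm4. Krt2 stood at 34.4%. These shares were not tested.

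**Figure D2:**
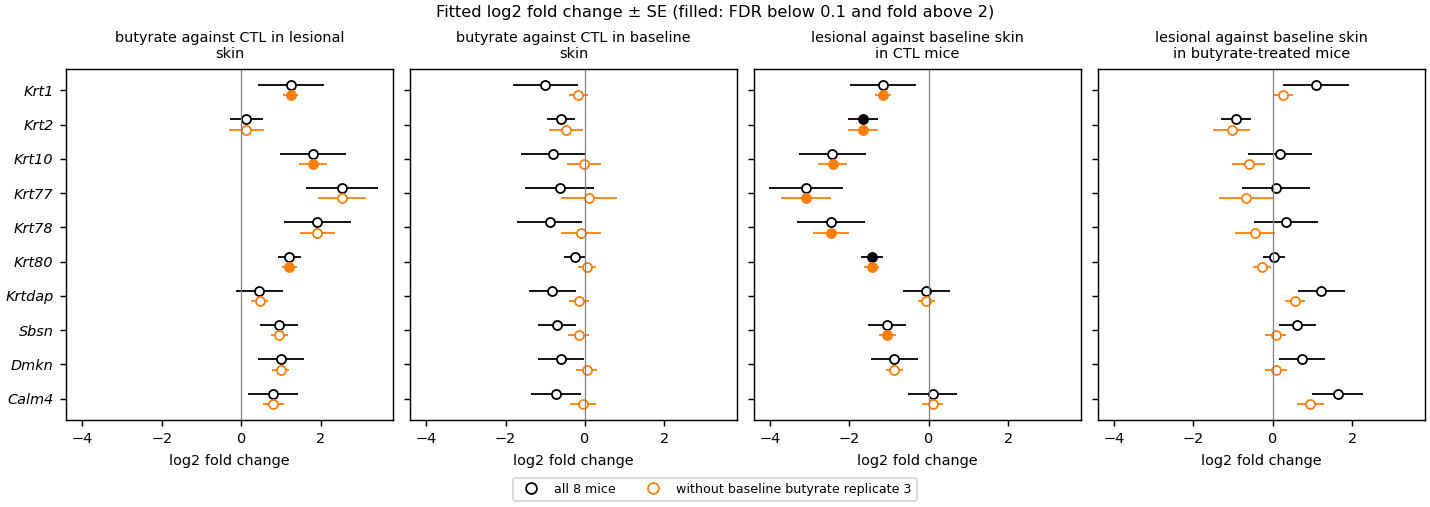
Fitted log2 fold change of each gene in 4 comparisons, with bars of 1 standard error, from all 8 mice (black) and without baseline butyrate replicate 3 (orange); filled points passed an FDR below 0.1 with a fold above 2, and Krt2 entered the test only through baseline skin. The estimates for lesional skin of butyrate-treated against CTL mice and for CTL mice keep their place and only their errors shrink, while the estimates that involve baseline butyrate skin move, for instance from -0.996 to -0.17 for Krt1 in baseline skin.

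In baseline skin the effect of butyrate turned on which baseline butyrate mouse was read. Replicate 1 lay near the baseline CTL mice, and replicate 3 lay more than 2-fold below replicate 1 for 8 of the 10 genes. Krt1 was at 2961 CPM in replicate 1 and 372 CPM in replicate 3, a 7.96-fold gap. Krt10 was at 6706 and 1065 CPM, and Krt77 at 4392 and 858 CPM.
Of the keratins only Krt80 (298 and 185 CPM) and Krt2 (0.733 and 0.619 CPM) were within 2-fold of each other in this pair. Krt78 was at 165 and 27.2 CPM. Krtdap was at 1293 and 329 CPM, Sbsn at 1717 and 627 CPM, Dmkn at 2545 and 682 CPM and Calm4 at 809 and 198 CPM.
For Krt10, Krt77, Krt80, Dmkn and Calm4 the baseline CTL and baseline butyrate mice overlapped, with replicate 1 inside or above the CTL values. All 10 fitted differences were below 0, from -0.996 for Krt1 to -0.25 for Krt80, with a median of -0.72 against 0.00 over all genes. edgeR called 0 of the 10, as of all genes (0%), with 0 of the 10 at an unadjusted p under 0.05, and limma-voom (0% of all genes) and DESeq2 (0.383%) called 0. No overlap with the lower level in butyrate-treated mice was seen for 5 of 10 genes, Krt1, Krt2, Krt78, Krtdap and Sbsn, against 15.9% of all genes. These 5 were also higher without overlap in lesional skin, though Krt2 at only 6 to 8 counts, a pairing that 4.31% of all genes showed. Without replicate 3 the median was -0.08, 3 genes were higher and 7 lower, the differences lay between -0.48 for Krt2 and 0.10 for Krt77, and 0 of the 10 and 0% of all genes were called. Without replicate 1 the median was -2.11 and 8 genes were called lower, where 24.1% of all genes were called in either direction. The high hair shaft, melanocyte and cell cycle values of replicate 3 go with its low values of these genes. Its low values were not particular to these genes. Summed levels in replicates 3 and 1 were 11519 and 49139 CPM for skeletal muscle and 3777 and 8515 CPM for fibroblast genes. They were 229 and 892 CPM for leukocyte and 649 and 1455 CPM for sebaceous gland genes. Keratins of activated epidermis (3332 and 1039 CPM) and regulators of differentiation (3565 and 2420 CPM) were higher in replicate 3. The part of all these in the result was not tested.

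In butyrate-treated mice, lesional skin was not separated from baseline skin for most of these genes. The median log2 difference was 0.62 over the 9 genes without Krt2 and -0.04 over all genes. Calm4 had the largest value (1.63, SE 0.64, FDR 0.360), followed by Krtdap (1.23, SE 0.60) and Krt1 (1.09, SE 0.83), and these 3 did not overlap between the groups, where 15.7% of all genes were higher without overlap. Krt2, with the same limit from the filter, was lower without overlap, as were 16.9% of all genes. edgeR called 0 of the 9 genes, against 0.35% of all genes, with 1 at an unadjusted p under 0.05 (Calm4). limma-voom called 0 (0.277% of all genes), and DESeq2 called Calm4 (FDR 0.0933), against 4.6% of all genes. Leaving out baseline butyrate replicate 3 gave a median of 0.07 over the 9 genes, 5 higher and 4 lower, and 0 calls, against 5.94% of all genes. In that fit Krt10 was at -0.60, Krt77 at -0.66 and Krt78 at -0.44, while Calm4 (0.95) and Krtdap (0.56) remained above 0.
The effect of butyrate in lesional skin minus that in baseline skin was above 0 for 9 of the 9 genes without Krt2. It lay between 1.29 for Krtdap and 3.17 for Krt77, with a median of 1.67 against -0.04 over all genes. Krt2 was at 0.74, with the same limit from the filter. edgeR called 0 of the 9 genes, as of all genes (0%), and each had an FDR of 0.840. Of these, 3 had an unadjusted p under 0.05 (Krt77, Krt80 and Sbsn). limma-voom (0% of all genes) and DESeq2 (0.244%) also called 0. When baseline butyrate replicate 3 was left out the median of the 9 genes was 1.16.

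Ratios within a library do not depend on scaling between libraries, and they set suprabasal against basal keratins. For 1 count of Krt14, the basal type I keratin, there were 2.51 and 2.37 counts of Krt10 in baseline CTL mice, 0.141 and 0.355 in lesional CTL mice and 1.04 and 0.810 in lesional butyrate mice. In the baseline butyrate mice the ratio was 2.67 in replicate 1 and 0.440 in replicate 3. Lesional CTL mice thus had the lowest ratios of all 8, and lesional butyrate mice lay between them and the baseline CTL mice.
On the log2 scale lesional butyrate exceeded lesional CTL skin by 2.03, and lesional CTL minus baseline CTL skin was -3.45. With 2 mice against 2 the exact permutation test cannot give a p below 0.333, which was its value in both cases (two-sided). Krt14 itself was at 5919 and 4779 CPM in lesional CTL skin against 2768 and 2809 CPM in baseline CTL skin.
Krt1 to Krt5, the type II pair, was 0.679 and 0.689 in baseline CTL, 0.274 and 0.319 in lesional CTL and 0.678 and 0.517 in lesional butyrate mice. In baseline butyrate mice it was 0.708 in replicate 1 and 0.0980 in replicate 3. Lesional butyrate exceeded lesional CTL skin by 1.00 on the log2 scale (exact permutation test, two-sided, p = 0.333, the smallest possible).

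The balance between the 2 partner keratins Krt1 and Krt10 also differed. The ratio of Krt1 to Krt10 counts was 0.483 and 0.494 in baseline CTL mice, 0.442 and 0.349 in baseline butyrate mice, 1.77 and 0.888 in lesional CTL mice and 0.826 and 0.771 in lesional butyrate mice. All 4 lesional mice were above all 4 baseline mice, also baseline butyrate replicate 3. The mean log2 ratio was 0.00 ± 0.56 in lesional and -1.19 ± 0.23 in baseline skin (SD, n = 4 each), a difference of 1.19. The exact permutation test, two-sided, gave p = 0.0286, the smallest that 4 against 4 mice allow, and 0.429 after Benjamini-Hochberg adjustment over the 15 ratio tests. Across all 4 lesional and 4 baseline mice, Krt10 to Krt14 differed by -1.84 (p = 0.0857 by the same exact test, adjusted 0.500) and Krt1 to Krt5 by -0.02 (p = 0.914).
Krt77 and Krt1, neighbours in the genome, did not keep a fixed ratio. This ratio was chosen after its values were seen and was not tested. There were 1.26 and 1.19 counts of Krt77 for each count of Krt1 in baseline CTL mice, 0.131 and 0.507 in lesional CTL mice, 0.775 and 0.796 in lesional butyrate mice, and 1.48 and 2.31 in baseline butyrate mice. All 4 lesional mice were below all 4 baseline mice.

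**Figure D3:**
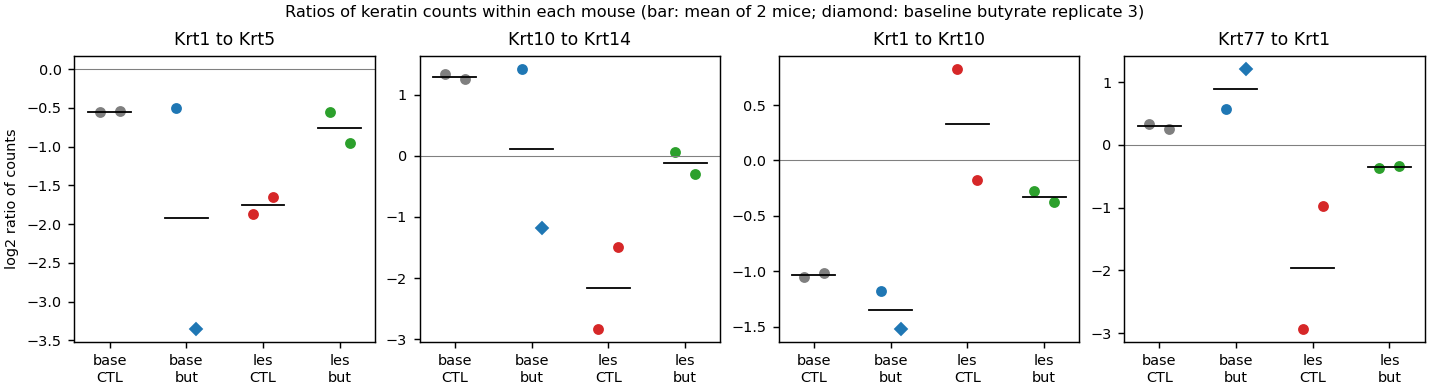
Log2 ratio of keratin counts in each mouse, with a bar at the mean of the 2 mice of a group. Suprabasal to basal ratios (Krt1 to Krt5, Krt10 to Krt14) are low in lesional CTL mice and in baseline butyrate replicate 3 (diamond), whereas Krt1 to Krt10 and Krt77 to Krt1 separate all lesional from all baseline mice, including that mouse.

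Other genes of the epidermis were read from lists named by function. Of 12 genes of basal keratinocytes, 3 were higher and 9 lower with butyrate in lesional skin, with a median log2 difference of -0.20, and 0 were called. Krt5 was at 0.23 (SE 0.26) and Krt14 at -0.16 (SE 0.25) in that comparison. The other keratin of this list, Krt15, named after its values were seen, was at 1.03 (SE 0.43, not called). In CTL mice Krt15 was lower in lesional than in baseline skin (-1.80, SE 0.44, not called). The 4 keratins of activated epidermis were all lower with butyrate (median -1.07, 0 called), and in CTL mice they were all higher in lesional than in baseline skin (median 3.91). In that comparison Krt6a (2.78, SE 0.49), Krt6b (6.38, SE 0.65) and Krt16 (5.03, SE 0.36) rose by edgeR, with FDR of 0.0532, 0.0230 and 0.00725, and Krt17 was at 1.63 (SE 0.64, FDR 0.238). Apart from Krt15, genes named here beyond the 2 most abundant of a list are named because they were called. Without either baseline CTL mouse, edgeR called 0 genes of the whole table in lesional against baseline CTL skin, with 1314 and 1560 at an unadjusted p under 0.05.
Of 14 genes of the cornified envelope, the final shell of the keratinocyte, 12 were higher and 2 lower with butyrate in lesional skin (median 0.72, 0 called). The most abundant were Asprv1, a protease of the granular layer, at 1.05 (SE 0.28), and Ppl, periplakin, at 0.59 (SE 0.21). In CTL mice 7 were higher and 7 lower in lesional than in baseline skin (median -0.09), and the repetin gene Rptn rose (3.74, SE 0.64, FDR 0.0511) while Lce1m fell (-4.60, SE 0.93, FDR 0.0734).
The 8 desmosome genes of suprabasal layers were all higher with butyrate in lesional skin, by less (median 0.31, 0 called), with Dsp, desmoplakin, at 0.34 (SE 0.25) and Perp at 0.35 (SE 0.26). Of them, Dsg1a, a desmoglein of upper layers, fell in lesional CTL skin (-1.24, SE 0.26, FDR 0.0738). Of 17 regulators of differentiation 14 were higher and 3 lower with butyrate in lesional skin (median 0.19, 0 called). Klf4, a transcription factor of barrier formation, was at 0.39 (SE 0.32) and Trp63, the master regulator of stratified epithelia, at 0.14 (SE 0.26). In lesional against baseline CTL skin, 9 regulators were higher and 8 lower.

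**Figure D4:**
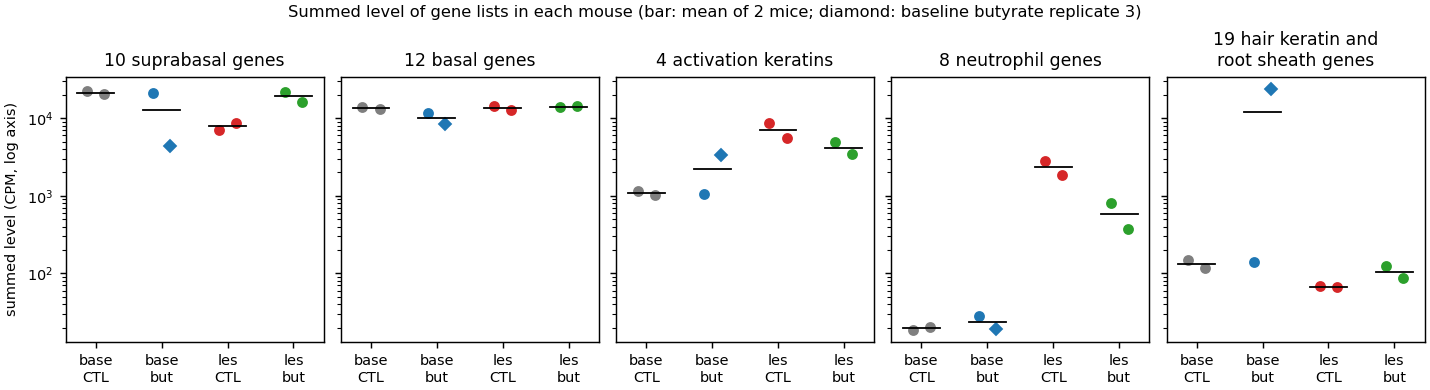
Summed level of 5 gene lists in each mouse, in CPM on a log axis shared by all panels, with a bar at the mean of the 2 mice of a group. The sum of the 10 suprabasal genes is lowest in baseline butyrate replicate 3 (4344 CPM, diamond), whose hair genes reach 23782 CPM, and next lowest in the lesional CTL mice (7084 and 8768 CPM), whose neutrophil genes are highest.

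Markers of other cells moved with the groups. The 10 suprabasal genes summed to 20541 and 22133 CPM in baseline CTL, 7084 to 8768 CPM in lesional CTL and 16275 to 21834 CPM in lesional butyrate mice. The 12 basal genes summed to 12681 to 14303 CPM in those same groups, and to 8292 and 11673 CPM in baseline butyrate mice. The 8 neutrophil genes summed to 18.8 to 28.1 CPM in baseline skin, to 1826 and 2817 CPM in lesional CTL skin and to 378 and 798 CPM in lesional butyrate skin. All 8 rose in lesional against baseline CTL skin by edgeR. In lesional CTL mice S100a9 was at 836 and 1466 CPM and S100a8 at 579 and 1000 CPM. These genes made up most of the sum, which is therefore not a measure of neutrophil number. The 8 leukocyte genes summed to 1021 to 1043 CPM in lesional CTL and 636 to 975 CPM in lesional butyrate skin. The 10 skeletal muscle genes summed to 41463 to 53090 CPM in baseline CTL skin and to 15442 to 28580 CPM in lesional skin. The 8 sebaceous gland genes summed to 1452 and 2182 CPM in baseline CTL skin and to 2679 to 3727 CPM in lesional skin. Krt79 was at 797 and 644 CPM in baseline CTL and at 1840 to 2617 CPM in lesional mice, and the other 7 genes summed to 808 and 1385 CPM against 839 to 1109 CPM. In CTL mice 4 of these 8 genes were higher and 4 lower in lesional skin. The 8 fibroblast genes summed to 3516 CPM in lesional butyrate replicate 3, the mouse with the higher suprabasal values of its group, against 8787 CPM in replicate 4 and 6515 and 7314 CPM in lesional CTL mice. Without replicate 3 the suprabasal differences between lesional butyrate and CTL skin were still above 0 for all 9 genes other than Krt2. Hair genes were at 67.2 to 68.4 CPM in lesional CTL and 86.2 to 124 CPM in lesional butyrate mice. The part of these cells in the levels of the suprabasal genes was not tested.

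Among the 10 genes, Sbsn lay closest to the mean profile of the group over the 8 mice, with a root mean square difference of 0.193 on the log2 scale after each gene was centred on its own mean, followed by Dmkn at 0.241. Krt77 (0.889) and Krt2 (0.782) lay farthest from it. Of 10918 genes with a mean of at least 10 CPM outside the group, Lce1a1 was nearest to the mean profile (0.133), followed by Lce1b (0.150), Srcin1 (0.169), Oas1f (0.174), Lce1c (0.176), Lce1d (0.196), Lce1a2 (0.203), Fndc9 (0.208), Kprp (0.215) and Orm1 (0.217), against a median of 0.818 over all these genes. The Lce1 genes encode late cornified envelope proteins and are near copies of each other, so reads may be shared between them, and Kprp encodes a keratinocyte proline-rich protein. Lce1a1 was at 325 and 237 CPM in baseline CTL, 217 and 66.9 CPM in baseline butyrate, 84.5 and 125 CPM in lesional CTL and 297 and 191 CPM in lesional butyrate mice. Without baseline butyrate replicate 3 the 10 nearest genes shared 6 with this list. The likeness is a description of 8 libraries and was not tested.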

How the data were processed

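RNA of snap-frozen dorsal skin from 8 mice was extracted with TRIzol and RNeasy columns, prepared with the Illumina TruSeq RNA kit and sequenced on an Illumina HiSeq. The authors aligned reads to GRCm38 with STAR 2.5.2 within RNASik, assigned them with featureCounts and deposited raw counts per protein-coding gene, counted by file name on the reverse strand; whether the kit marks strand is not given in the sources used here. Counts were used as deposited.

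All 22740 genes were read, and filterByExpr (minimum count 10) kept 15163. Differences were tested with edgeR 4.0.16 (R 4.3.3), with TMM scaling, robust glmQLFit and glmQLFTest, over all 8 mice with a mean per group and 4 residual degrees of freedom. Calls required a Benjamini-Hochberg FDR below 0.1, over all genes tested, and a fold above 2, the thresholds of the study, whose own method, voom of limma 3.58.1, was run as an alternative with DESeq2 1.42.0. Other alternatives changed scaling, filter, thresholds or mice. Library totals were 18004136 to 21085544 counts, and 3 counts were taken as the floor for counting error. Nothing says whether mice shared a cage or litter, and p-values measure the spread between these mice.

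The 10 genes, the lists and the tests were chosen with earlier results of these data known. Of each list the 2 genes of highest mean CPM were named, and called genes and Krt15 were named after their values were seen. Coordinates are from GENCODE vM21 (10 of 10 genes found by identifier), and CPM per kb used the union of annotated exons. The table files were read through the sample names in their column headers. A single gene of the lists was left out of the text, and its result is not reported here.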

Additional observations from a re-analysis of the deposited data

Results flagged for a closer look

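In 5 genes the effect of butyrate had opposite signs in lesional and baseline skin, with both butyrate-treated mice above both CTL mice in lesional skin and below both in baseline skin, as had 4.31% of all genes tested. For Krt2 the effect in lesional skin was only 0.13 (SE 0.41), at 6 and 7 counts in CTL and 7 and 8 in butyrate-treated mice, so its sign there is not settled. The log2 effect in lesional skin minus that in baseline skin was 2.24 for Krt1, 0.74 for Krt2, 2.80 for Krt78, 1.29 for Krtdap and 1.67 for Sbsn. For Krt1 both lesional CTL mice were below both baseline CTL mice, as for 38.5% of all genes tested. Both its lesional butyrate mice were above both baseline butyrate mice, as for 15.7% of all genes. The latter levels were 4007 and 3072 CPM against 2961 CPM in replicate 1 and 372 CPM in replicate 3. The share of genes with both patterns was not counted. For every gene the same value is also the lesional minus baseline difference in butyrate-treated mice, less that in CTL mice. The difference itself did not pass edgeR's test in any of the 5 genes (FDR 0.840 each). Without baseline butyrate replicate 3 the effect in baseline skin was -0.17 for Krt1, -0.10 for Krt78 and -0.16 for Krtdap and Sbsn, and -0.48 for Krt2. Groups of 2 mice are too small for a check of single outlying mice.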

How the results depend on the processing

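Libraries limit only Krt2, at 6 to 20 counts, and 2 mice a group limit the rest. Where 1 mouse was left out, its lone group mate was assumed to vary like the other groups. No paired analysis was made, because each library came from a different mouse and no label marks mice as pairs. Where no cause is given, the cause was not tested.

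Beside each number of the 10 genes called stands the share of all genes called in the same fit. For butyrate against CTL in lesional skin it was 1 with DESeq2 (0.818%), and without baseline butyrate replicate 3 it was 3 with limma-voom (1.41%) and 5 with DESeq2 (2.46%). It ranged from 0 to 3 when each mouse was left out (0 to 1.22%). For butyrate in baseline skin it ranged from 0 to 8 (0 to 24.1%) and the median from -2.11 to -0.0753. For lesional against baseline skin in CTL mice it was 4 with DESeq2 (7.21%), 1 with library totals (3.96%) and with no filter on low counts (2.63%), 7 with only the mice compared (12.9%), 0 at an FDR below 0.05 with 245 genes called in all, and without baseline butyrate replicate 3 it was 7 with limma-voom (12.5%) and 6 with DESeq2 (11.5%). It ranged from 0 to 7 when each mouse was left out (0 to 12.5%). Where it was 7, Krt2 was among them, and the other 9 genes gave 6. In butyrate-treated mice it was 1 with DESeq2 (4.6%) and ranged from 0 to 7 (0 to 19.1%), the median of the 10 from -0.10 to 2.02. For the difference of the effects it was 5 with DESeq2 without baseline butyrate replicate 3 (1.08%) and ranged from 0 to 9 (0 to 20.9%), the median from 1.14 to 2.87. The high ends came without baseline butyrate replicate 1 and, in lesional and in CTL mice, also without replicate 3.

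Signs turned in 6 genes. Without baseline butyrate replicate 3, by limma-voom and DESeq2 in turn, butyrate in baseline skin gave 0.11 and 0.10 for Krt77, 0.0582 and 0.0530 for Krt80 and 0.0501 and 0.0449 for Dmkn. Lesional against baseline skin in butyrate-treated mice gave -0.61 and -0.59 for Krt10, -0.67 and -0.65 for Krt77, -0.49 and -0.43 for Krt78 and -0.29 and -0.26 for Krt80. By edgeR, over the mice left out in turn, the ranges in baseline skin were -2.25 to 0.10 for Krt77, -0.64 to 0.0538 for Krt80 and -1.86 to 0.0457 for Dmkn. In butyrate-treated mice they were -0.60 to 2.06 for Krt10, -0.66 to 1.70 for Krt77, -0.44 to 2.16 for Krt78 and -0.27 to 0.42 for Krt80. Krtdap in lesional against baseline skin of CTL mice was 0.0672 with library totals and -0.14 to 0.0218 over the mice left out.

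The log2 ratio of Krt1 to Krt5 differed by -2.80 to 0.0498 for butyrate in baseline skin, by -0.26 to 2.60 for lesional against baseline skin in butyrate-treated mice and by -0.73 to 0.23 over all mice. That of Krt10 to Krt14 differed by -2.47 to 0.13 for butyrate in baseline skin and by -1.54 to 1.06 for lesional against baseline skin in butyrate-treated mice. Of all values recomputed for single genes, 674 kept direction and side of the threshold, 73 newly passed it, 16 no longer passed and 26 changed sign.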
